A study of Oryza sativa with 2 samples.

Results

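Metallothioneins were followed at 8 loci of the rice genome, of 23783 loci with a usable probe on the array. The loci were chosen by identifier, as metallothionein-like genes of rice: 5 of type 1 (Os03g0288000, Os11g0704500, Os12g0568500, Os12g0571000 and Os12g0571100), 2 of type 2 (Os01g0149800 and Os05g0111300) and 1 of type 3 (Os01g0200700). RNA came from root hairs of rice seedlings 3 days after germination, cultivar label Don-gin, which had been rubbed off seminal roots frozen in liquid nitrogen. The 2 one-colour arrays are replicates 1 and 2 of a single group, 07g39940 over, and are named sample 1 and sample 2. Both samples carry the 07g39940 label, whose meaning the labels do not explain, and there is no control group in the data used here. The labels do not say whether the replicates are separate plants, lines or preparations, so the spread between them may be technical.

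Metallothioneins are small proteins rich in cysteine, whose sulfur atoms hold zinc, copper and cadmium in clusters. In plants they buffer metal ions, above all copper and zinc, and take up reactive oxygen. Plant metallothioneins are divided into types by how their cysteines are arranged. In Arabidopsis, type 1 transcripts are known mainly from roots, type 2 from shoots and type 3 from leaves, while the seed type is made in the maturing embryo. In rice, the metallothionein named OsMT2b is known as a scavenger of reactive oxygen whose transcript is lowered by the signalling GTPase Rac1.

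Names are not settled across sources. The RefSeq table used here (assembly ASM3414082v1) holds 9 genes with a metallothionein symbol, of which 2 lie on chromosome 1, 3 on chromosome 12 and 1 each on chromosomes 3, 5, 10 and 11. The chromosome 5 gene is listed there both as MT2C and as OsMT2b. Of the locus identifiers used here, 0 occur in that table, so loci are given by identifier and their type is that of rice gene nomenclature. The chromosome of a locus is the number at the start of its identifier. The type 1 loci of chromosome 12 have closely related copies, and the probes were not taken to separate them.

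The 8 loci had 24 probes, each spotted once per array. All 24 probes were well above background on both arrays, and all 24 were called present in the authors' deposited table. Among all loci the share detected on both arrays was 84%, so detection alone does not set the metallothioneins apart. None of the 24 spots was saturated or had a spot outlier flag. All 24 probes also exceeded the highest of 24 random-sequence and artificial control probes (44.3 in sample 1, 48.3 in sample 2). Counted by locus, all 8 did so, against 69.6% of all loci.

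Type 1 metallothioneins gave very bright signals that were nearly equal in the 2 samples. Signals are processed Cy3 intensities in arbitrary units. The probe of Os12g0571100 read 402261 in sample 1 and 398759 in sample 2. The 2 probes of Os03g0288000 read 317150.3 and 306464 in sample 1 and 324008 and 310528 in sample 2. The first of these is assigned to transcript 02 and the other to transcript 01, and their log2 differences were 0.0012 and -0.01. Neither transcript of this gene therefore stood apart between the samples.

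Os11g0704500 had 5 probes, which read from 247194 to 356595 in sample 1 and from 244422 to 344075 in sample 2. Its log2 differences, always sample 2 minus sample 1 after scaling each array to its 75th percentile, lay between -0.08 and -0.02. Os12g0568500 read 181947 and 179707, and Os12g0571000 read 21062 and 21563. The signals of a pair of probes are not compared with each other, since brightness also depends on the probe. The 10 type 1 probes together differed by -0.08 to 0.00 on the log2 scale, at most 1.06-fold, with 2 slightly higher in sample 2 and 8 slightly lower.

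These type 1 differences are smaller than the measurement error of a spot. The software's own error was 10% of the signal for each spot, which amounts to 0.20 to 0.21 on the log2 scale for a difference between the arrays. The direction of the type 1 differences also turned with the scaling, as given below. Relative to the 75th percentile of the array, the mean log2 level over both samples was 7.21 ± 0.03 for Os12g0571100 and 6.86 ± 0.0034 for Os03g0288000 (SD, n = 2). It was 6.70 ± 0.04 for Os11g0704500, 6.06 ± 0.03 for Os12g0568500 and 2.98 ± 0.0029 for Os12g0571000 (SD, n = 2). The brightest raw spot of type 1 reached 47.0% of the scanner's saturation value.

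**Figure D1:**
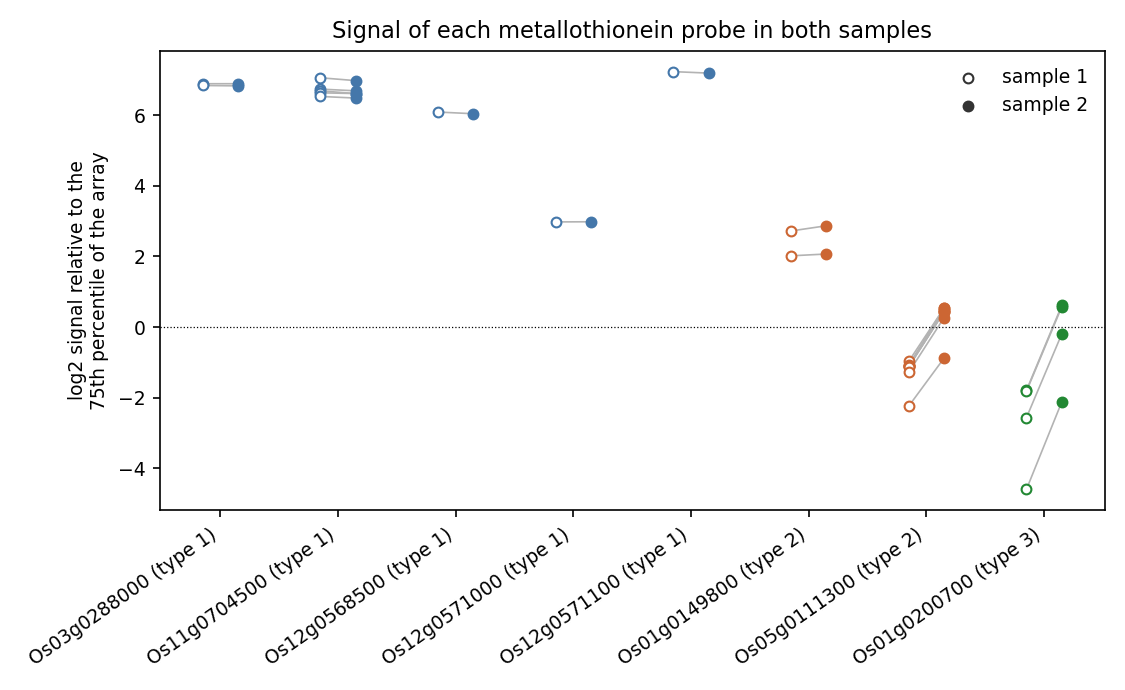
Log2 processed signal of each of the 24 metallothionein probes relative to the 75th percentile of its array (dotted line at 0), in sample 1 (open) and sample 2 (filled), with a line joining the same probe. Heights may be compared along a line, not between probes: the type 1 lines are level, while those of Os05g0111300 and Os01g0200700 rise from sample 1 to sample 2.

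The 2 type 2 loci behaved differently from each other. Os01g0149800 was nearly equal in both samples. Its probe in the untranslated region read 17640 in sample 1 and 19946 in sample 2, and the probe in the coding region and 3′ untranslated region read 10828 and 11456. The log2 differences of 0.15 and 0.05 were within the error of a spot, and the mean level was 2.42 ± 0.07 (SD, n = 2).

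Os05g0111300, the type 2 locus of chromosome 5, was 2.89-fold higher in sample 2. Its 8 probes read from 568 to 1369 in sample 1 and from 1486 to 3972 in sample 2 and each of the 8 was higher in sample 2 than in sample 1. The geometric means over the probes were 1125 and 3322. The log2 difference was 1.53, with an SD of 0.08 between the 8 probes and a range from 1.36 to 1.61.

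The lowest of these differences came from the single probe placed in the 5′ untranslated region and coding region, which read 568 and 1486 (2.56-fold). The other 7 probes, all in the coding region and 3′ untranslated region, were 2.84-fold to 3.06-fold apart. By transcript, the 6 probes of transcript 01 had a mean log2 difference of 1.56 and the 2 probes of transcript 02 one of 1.45. The single lowest probe belongs to transcript 02, whose other probe differed by 1.55, within the range of transcript 01. With 2 probes for transcript 02, no difference between the transcripts is read from these values.

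Os01g0200700, the type 3 locus, was the member furthest apart, 5.31-fold higher in sample 2. Its 4 probes read 773, 761, 453 and 111 in sample 1. The same probes read 4183, 4067, 2388 and 629 in sample 2. Although the probes differed up to 6.98-fold in brightness within sample 1, their log2 differences between the samples were 2.41, 2.39, 2.37 and 2.47, with an SD of 0.05. The probe spots stood in rows 45, 501, 56 and 385 of the 532 rows of the array, so the difference was found at spots far apart on the slide. With the samples so far apart, the mean level over both was -1.49 ± 1.70 (SD, n = 2), and that of Os05g0111300 -0.48 ± 1.08.

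**Figure D2:**
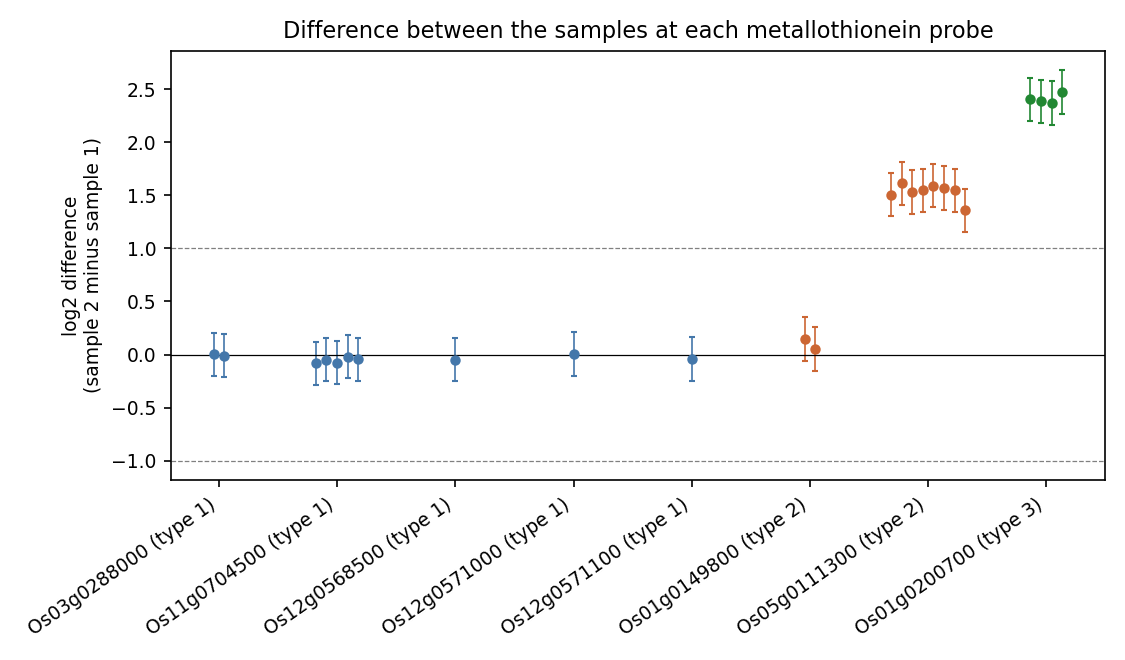
Log2 difference between the samples (sample 2 minus sample 1) at each of the 24 probes, grouped by locus. Bars are the software's error of the 2 spots (0.20 to 0.21) and dashed lines mark 2-fold: 12 probes, those of Os05g0111300 and Os01g0200700, lie beyond 2-fold and the other 12 lie within 1 error of 0.

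Over the 8 loci, 2 were at least 2-fold apart, both higher in sample 2, against 2.29% of the 19983 loci detected on both arrays. Toward sample 2 alone the share of all loci was 1.81%. At 1.5-fold the count of metallothioneins was again 2, against 6.78% of all loci (5.65% toward sample 2). Of all loci at least 2-fold apart, 79.2% were higher in sample 2, and with normexp background correction 63.5% were. With 8 loci of 1 family, chosen with results of these arrays known, these counts are a description and were not tested.

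Large differences were rarer among bright loci. All 8 metallothioneins belonged to the brighter 50% of detected loci, in which the SD of the log2 difference was 0.17, against 0.39 over all detected loci. Among these brighter loci, 0.31% were at least 2-fold apart and 0.27%, or 27 of 9991, at least 2-fold higher in sample 2. At 1.5-fold the shares were 0.721% and 0.561%. The 2 metallothioneins are among those 27. Their log2 levels were lower in sample 1 (-1.25 for Os05g0111300, -2.69 for Os01g0200700) than in sample 2 (0.28 and -0.28). Whether sample 1 alone would place them in the brighter 50% was not examined, so these smaller shares are description only. Over all detected loci, 29 (0.145%) were as far toward sample 2 as Os01g0200700 or further, and 102 (0.510%) as far as Os05g0111300. The median over the 8 loci, -0.00030, stands beside 0.02 for all detected loci, and gives no sign of the 2 loci that were far apart.

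**Figure D3:**
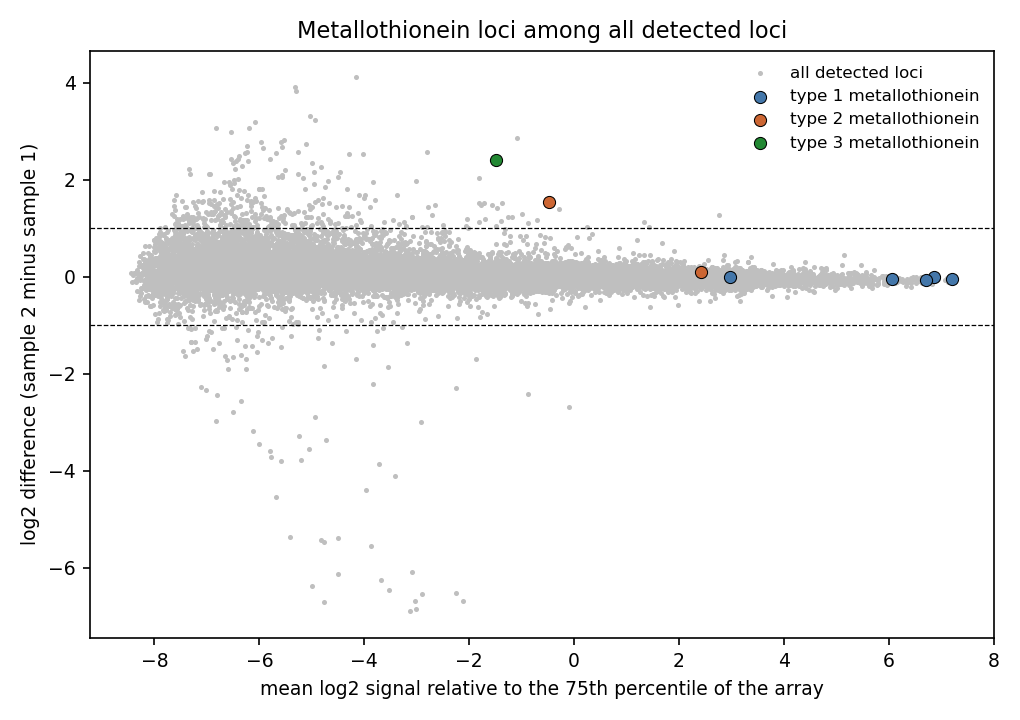
Log2 difference between the samples against the mean log2 level for all 19983 detected loci (grey) and the 8 metallothioneins (coloured by type), with dashed lines at 2-fold. The 5 type 1 loci and Os01g0149800 lie on the narrow bright end near 0, and Os05g0111300 and Os01g0200700 lie at 1.53 and 2.41, above the band of loci of like brightness.

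A further 5 metallothionein-like loci of rice, which were not among the 8, also split into one with a large difference and others with little. Os05g0202800 was 7.32-fold higher in sample 2 at its 1 probe, which read 464 and 3471 (log2 difference 2.87). Only 10 of all detected loci, itself included, were as far toward sample 2. The other 4 differed little. Os12g0567800 read 281382 and 268394, Os12g0568200 read 82941 and 81631, and Os01g0149200 read 37317 and 39923.

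Os10g0542100, on the chromosome where RefSeq lists OsMT4, gave a log2 difference of -0.06. Its 3 probes disagreed in level: 1 read 1055 and 1006, while the other 2 read 18.2 and 19.6, and 18.03 and 16.5, below the highest control probe. A metallothionein-like locus added after the values had been opened, Os01g0974200, went the other way. Its 5 probes read from 595 to 1775 in sample 1 and from 417 to 1531 in sample 2, and all 5 were lower in sample 2 (log2 difference -0.31, SD 0.13 between probes).

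Phytochelatin synthases and the first enzyme of glutathione synthesis make the other thiol chelators of plant cells, and 2 of their 3 loci were detected in both samples. Neither was 2-fold apart, with log2 differences of -0.07 for Os06g0102300 and 0.22 for Os05g0129000. Os05g0415200 was well above background in sample 2 alone, with signals of 7.85 and 13.4 that lay below the highest control probe.

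Among 18 listed loci of copper and zinc handling, 17 were on the array and 15 detected in both samples. Of these 0 were at least 2-fold apart, with a median log2 difference of -0.07. Of the 15, 12 were lower in sample 2, against 44.0% of all detected loci. With scaling to the median 13 of the 15 were lower, against 66.2% of all detected loci. For 8 of the 15 the difference was within the error of a spot. Beyond that error 6 loci were lower in sample 2 and 1 was higher. The 6 were ZIP5 (log2 difference -0.85), Os01g0972200 (-0.41), HMA2 (Os06g0700700, -0.36), ZIP4 (Os08g0207500, -0.32), COPT1 (Os01g0770700, -0.23) and ZIP8 (Os07g0232800, -0.21). The 1 higher was copper/zinc superoxide dismutase Os08g0561700 (0.39). That error is the software's value of about 10% per spot, set here against means of up to 5 probes. It is a fixed mark and not a test. The list was not tested as a set. The one beyond 1.5-fold, singled out for its value, was ZIP5 (Os05g0472700), a zinc transporter, at 763 and 432 (1.80-fold lower in sample 2). The P-type ATPase HMA9 (Os06g0665800), which pumps metals out of cells, read 7020 and 7036, and the vacuolar zinc transporter MTP1 (Os05g0128400) read 9660 and 9399.8. Copper/zinc superoxide dismutase Os03g0351500, an enzyme that holds both metals, read 96414 and 94222.

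Markers of other tissues differed between the samples together with the 2 metallothioneins. Photosynthesis genes, of which 8 were listed, were higher in sample 2 at all 8 loci, against 11197 of the 19983 detected loci. Their median log2 difference was 2.34, and 5 were at least 2-fold higher. In the authors' deposited table the median was 1.20 and 4 were at least 2-fold higher, and with normexp background correction it was 0.86, again with 4. Their summed signal was 2939 in sample 1 and 4294 in sample 2, and all 8 were detected in both samples. In sample 1 the signals of 3 of the 8 exceeded the highest control probe, and in sample 2 all 8 did. The 5 loci at least 2-fold apart were those below that control in sample 1, so the sizes of their differences are not firm. Os01g0600900 read 36.1 and 637, and Os11g0707000, which encodes Rubisco activase, read 14.0 and 92.7. Os05g0560000 read 10.2 and 82.7, and the Rubisco small subunit loci Os12g0292400 and Os12g0274700 read 12.5 and 108, and 15.1 and 61.2. Os12g0274700 was the one under 2-fold in the authors' deposited table (log2 difference 0.94). The 3 loci above the highest control probe in sample 1 differed little. Os11g0242800 read 2066 and 2376 (log2 difference 0.17), Os07g0141400 read 520 and 638 (0.26) and Os07g0544800 read 265 and 298 (0.14). This list was chosen with its earlier result known.

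Seed storage genes went the other way. Of 6 loci, 6 were detected in sample 1 and 4 in sample 2, and the 4 detected in both were lower in sample 2. Os02g0249800 read 3316 and 28.5, Os01g0762500 read 2595 and 39.1, Os10g0400200 read 786 and 38.3, and Os03g0427300 read 761 and 9.42. All 4 signals in sample 2 were below the highest control probe, so no exact fold is given. Their log2 differences ran from -6.89 to -4.39, from -5.69 to -3.62 in the authors' deposited table and from -5.18 to -3.14 with normexp. Their summed signal was 7458 in sample 1 and 115 in sample 2. The part of these differences in the metallothionein values was not tested. In RNA from a whole preparation, fewer cells of a type and less RNA per cell cannot be told apart.

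Markers of the root hair itself differed less. Of 6 root hair growth loci 5 were detected in both samples, with a median log2 difference of -0.05. CSLD1 (Os10g0578200), a cellulose synthase-like protein needed for hair elongation, read 46041 and 51117. Another 3 loci were lower in sample 2. Os10g0122600 read 148676 and 128816 (log2 difference -0.24), XXT1 (Os03g0300000) read 48800 and 47716 (-0.06) and Os05g0528000 read 14139 and 13972 (-0.05). Os01g0111500, at 98.8 and 205, was 2.04-fold higher in sample 2, the only one of the 5 beyond 2-fold. It fell under 2-fold in the authors' deposited table (log2 difference 0.68), with normexp (0.69), and with median, quantile and loess scaling (0.92, 0.87 and 0.92). Of 6 stele and endodermis markers 2 were detected in both samples, and both were lower in sample 2. CASP1 (Os04g0684300) read 138 and 91.4 (1.54-fold) and PHO1;2 (Os02g0809800) read 132 and 110 (1.22-fold). Their summed signal was 270 in sample 1 and 201 in sample 2, while HKT1;5, SCR1 and SCR2 were undetected in both. SHR1 (Os07g0586900) was detected in sample 2 alone, at 3.82 and 10.2, below the highest control probe.

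**Figure D4:**
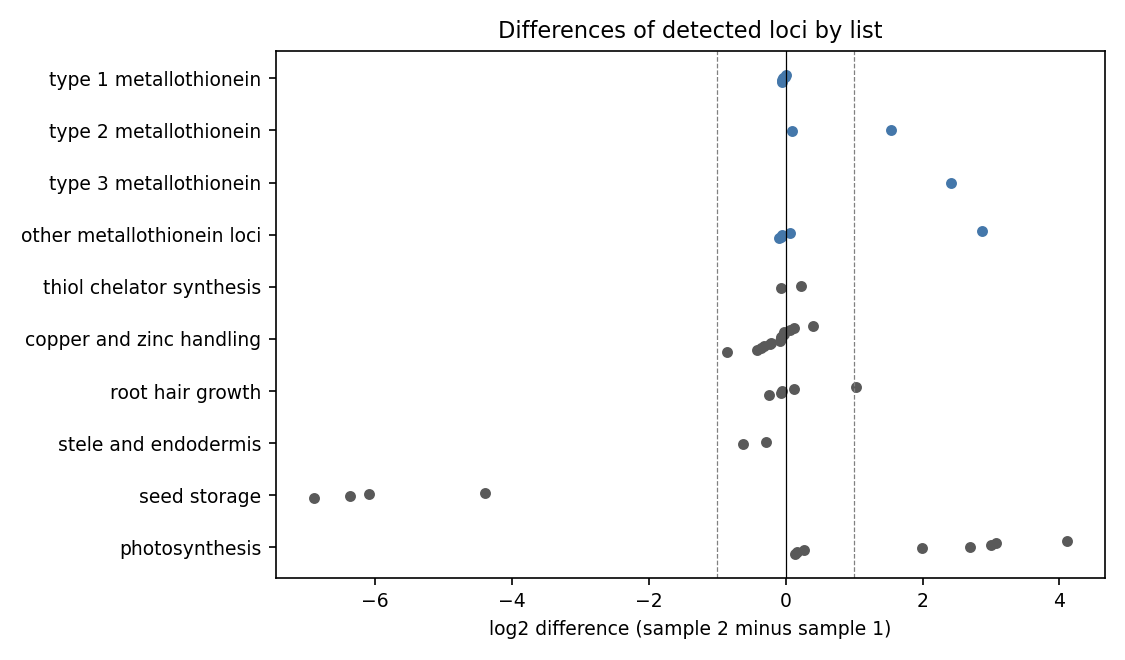
Log2 difference between the samples for every listed locus detected in both except Os01g0974200, which is not drawn, by list (metallothioneins in blue), with dashed lines at 2-fold. Type 1 loci lie at 0, 3 metallothioneins of other kinds lie with 5 of the 8 photosynthesis genes beyond 2-fold toward sample 2, and the seed storage genes lie beyond -4.39.

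The contrast between these loci held under every processing that was tried. Over 10 settings, the log2 difference of Os01g0200700 lay between 2.15 and 2.41 and that of Os05g0111300 between 1.43 and 1.53. Not all of these settings could change the values. Dropping the filter on dim probes could not, since every metallothionein probe was well above background on both arrays. Keeping spots with a spot outlier flag acted only through the scaling, since no metallothionein spot had that flag. Type 1 loci stayed between -0.16 and 0.07. Their sign changed with the scaling: Os11g0704500 was lower in sample 2 under 7 settings and higher under 3, and Os03g0288000 was higher under 5 and lower under 5. No direction is therefore given for type 1, and as some settings could hardly differ from each other, these tallies give no rate. In the authors' deposited table, whose values are on a log2 scale, the differences of the 4 probes of Os01g0200700 were 2.27, 2.23, 2.09 and 2.03, and those of Os05g0111300 ran from 1.23 to 1.52.

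**Figure D5:**
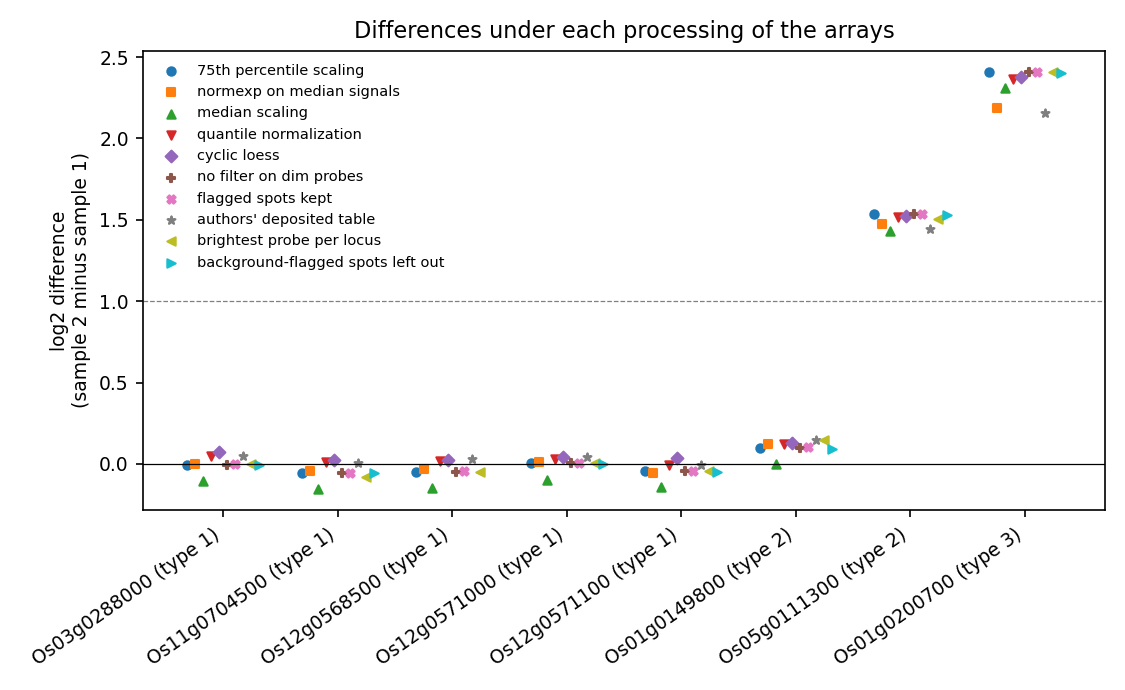
Log2 difference between the samples for each metallothionein locus under 10 processings of the arrays (symbols), with a dashed line at 2-fold. Symbols of 1 locus lie close together, and Os05g0111300 and Os01g0200700 stay above 2-fold under each.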

How the data were processed

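Per the file headers, each array was read with Agilent Feature Extraction 11.5.1.1 on a probe design of build IRGSP5, while the submitters' processing notes name version 9.1. Processed Cy3 intensity was deposited by the authors as background-subtracted and detrended within each array, not normalized between arrays. A table of log2 values, also deposited by the authors, followed the log2 median spot signal (r across spots 0.9996 and 0.9999), and its making is not described in the sources used. Both arrays were on 1 slide and in 1 scan.

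Of 45151 spots, 1417 scanner controls, 240 random-sequence or artificial controls and 61 spots with a spot outlier flag were left out. Spots with only a background outlier flag were kept, because that flag fell on 16.5% of the brightest 5% of spots and 2.59% of others. Log2 intensity was scaled to the 75th percentile of each array (2677 and 2732). Probes well above background on both arrays were averaged by locus (pandas 2.3.3, numpy 2.4.6), and normexp, quantile and loess alternatives used limma 3.58.1 in R 4.3.3. With 1 group there is no test and no p-value. The number of arrays limits the precision. The alternatives for the comparison lists were added after the data were seen. The calculation was tested on simulated data.

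The members and all lists were chosen with earlier results of these data known. All 8 members are named, other metallothionein loci are all named, and loci of other lists are named when at least 2-fold apart. ZIP5, HMA9, MTP1, Os03g0351500, Os01g0974200, the 3 thiol chelator loci and the stele markers were named outside that rule, after their values were seen. The other copper and zinc loci beyond the error of a spot were too. So were the detected root hair and photosynthesis loci under 2-fold. No gene was named for a pattern like a member's, since 2 samples give none. Symbols are printed where found once in the RefSeq table on the identifier's chromosome (17 of 26).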

Additional observations from a re-analysis of the deposited data

How the results depend on the processing

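No paired analysis was possible because the samples form 1 group. Normexp was run on median spot signals, since the files used here hold no mean signal. The counts of 2 metallothioneins at least 2-fold apart and at least 1.5-fold apart were the same under all 9 alternatives. Dropping the filter on dim probes could not change them, and keeping flagged spots acted on them only through the scaling. Detection of 8 loci was the same above the highest control probe. Keeping flagged spots or leaving out replicate 1 or replicate 2 also gave 8 but could not lower the count. None of the 24 spots had a spot outlier flag, and detection already required both arrays. The count fell to 7 when spots with a background outlier flag were left out, because the only spot of Os12g0568500 has that flag. This alternative was added after the data were seen. The median difference over the loci, -0.00030, became 0.0445 in the authors' deposited table, 0.039 with quantile normalization, 0.0571 with cyclic loess, -0.10 with median scaling and 0.0057 with normexp. It was 0.0027 with the brightest probe per locus, 0.0011 with flagged spots kept and -0.0014 without background-flagged spots. Median scaling moved the median of all loci by -0.10, which accounts for the shift it gave here. Of the differences of single loci under the alternatives, 46 moved by less than the spread between the samples and 25 by more, all 25 at loci under 1.5-fold. That spread is the SD of the same 2 values, so it is wide where the samples are far apart. The 2 loci far apart could therefore hardly move by more, and the split says nothing of their stability. Of the levels of single loci, 59 moved by less than that spread and 28 by more. Leaving out a replicate could not move a level by more than it. The count of all loci at least 2-fold apart was 457 and became 115 with normexp, 145 in the authors' deposited table, 390 with median scaling, 356 with quantile normalization, 391 with loess and 1184 without the filter on dim probes. Of these loci, 79.2% were higher in sample 2, against 63.5% with normexp, 61.4% in the authors' deposited table and 63.2% with quantile normalization. Signal over background limited none of the 8 loci.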

Other observations

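Background outlier flags marked 4 of the 24 metallothionein spots (16.7%), all at type 1 loci, and 358 of the brightest 2175 spots of the array. A filter on that flag would remove Os12g0568500 from the data.

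The 3 probes of Os10g0542100 are all assigned to transcript 01 and to the coding and 3′ untranslated region, yet the brightest was 58.5-fold above the dimmest in sample 1 and 61.1-fold in sample 2.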
